A study of Homo sapiens with 6 samples.

Results

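The enzymes that build, lengthen and desaturate fatty acids were examined in Hep3B cells, a line from a human hepatocellular carcinoma, on Affymetrix HG-U133 Plus 2.0 arrays. The 10 genes, of 21357 annotated on the array, are ACLY, ACACA, ACACB, FASN, SCD, SCD5, ELOVL6, FADS1, FADS2 and ME1, and they were read by every probe set that the platform annotation assigns to them or to an older alias, 33 of 54675. Of these, 30 carried 1 symbol, and the 3 probe sets of FADS1 were annotated to FADS1 together with MIR1908, a microRNA gene. The D20 group was 3 arrays, named A, B and C, of clone D20, stably transfected with the plasmid siSDHB against SDHB, a subunit of succinate dehydrogenase. The pU6-2 group was 3 arrays, also named A, B and C, of clone 2 carrying the control plasmid pU6. Both clones grew under G418 in medium with serum and pyruvate. Each group was a single clone, so silencing and clone cannot be told apart. The labels do not state whether a clone's arrays came from separate cultures, and the p-values measure only the spread between these arrays, which may be technical. SDHB is not analysed here.

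Fatty acid synthesis starts in the cytosol, where ATP-citrate lyase (ACLY) cleaves citrate to acetyl-CoA and the acetyl-CoA carboxylases ACACA and ACACB convert it to malonyl-CoA. Fatty acid synthase (FASN) condenses these units to palmitate with NADPH, of which the cytosolic malic enzyme ME1 is a source. In the endoplasmic reticulum ELOVL6 lengthens palmitate, the stearoyl-CoA desaturases SCD and SCD5 insert the first double bond, and FADS1 and FADS2 desaturate polyunsaturated chains. In liver the transcription factors SREBP-1c, the liver X receptors and ChREBP are known to drive most of these genes.

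Signals were made with MAS5, which summarises the probes of a probe set on a linear scale, and each array had a trimmed mean of 500.1 with 2% of values removed at each end. The median signal was 86.2 to 92.4 on D20 arrays and 77.7 to 84.1 on pU6-2 arrays. The ratio of the 3' to the 5' control probe set of GAPDH, a sign of RNA integrity, was 1.11 to 1.25 in D20 and 1.08 to 1.15 in pU6-2, and that of ACTB 1.40 to 1.68 in D20 and 1.42 to 1.90 in pU6-2. The number of arrays limits the precision. ALB, a defining transcript of hepatocytes, was bright in both clones: its brightest probe set averaged 43934.7 in D20 and 43677.7 in pU6-2. AFP, the oncofetal protein of this lineage, averaged 403.5 in D20 and 20569.5 in pU6-2. Most other hepatocyte markers were also lower in D20, and FGB was higher.

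The comparison of D20 with pU6-2 asks how a clone carrying the plasmid against SDHB differs from a control clone, here in lipogenic enzymes. Transcripts of 6 of the 10 genes, ACLY, ACACA, FASN, SCD, ELOVL6 and FADS1, were lower in D20 on every probe set tested. ACACB was lower on 3 of 5 probe sets, FADS2 did not pass the test, and SCD5 and ME1 each had 1 probe set that was higher. Signals were compared as log2(signal + 16) by limma over 32768 probe sets, with Benjamini-Hochberg adjustment over all of them and a threshold of 0.05. Of the 33 member probe sets 27 were bright enough to be tested, with a mean of log2(signal + 16) over all 6 arrays above the limit that corresponds to a signal of 43.2. Of the 27, 19 fell, 2 rose and 6 did not pass. Over all probe sets tested 36.5% were called, 17.0% as lower and 19.5% as higher, so 70.4% of tested member probe sets lower stands against 17.0%. The members were chosen with earlier results of these data known, and the 19 lower probe sets are repeated readings of 7 genes. The 13 that were called and at least 2-fold lower are 48.1% of the 27, against 5.95% of all probe sets. Of the 27, the groups did not overlap for 19 with D20 below, the same 19 that were called, and for 2 with D20 above. Over all probe sets tested 47.2% had groups apart, 22.1% with D20 below and 25.1% with D20 above. Call and separation rest on the same arrays, so the separation is no further evidence. The median log2 fold change, D20 over pU6-2, was -0.75 over the tested member probe sets and 0.03 over all. The other 6 member probe sets, 2 of ACACB and 1 each of FASN, SCD5, FADS2 and ME1, had signals of 3.0 to 130.5 on single arrays and are given by their signals alone. These are bulk RNA values, in which fewer cells of a type and less RNA per cell cannot be told apart.

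**Figure D1:**
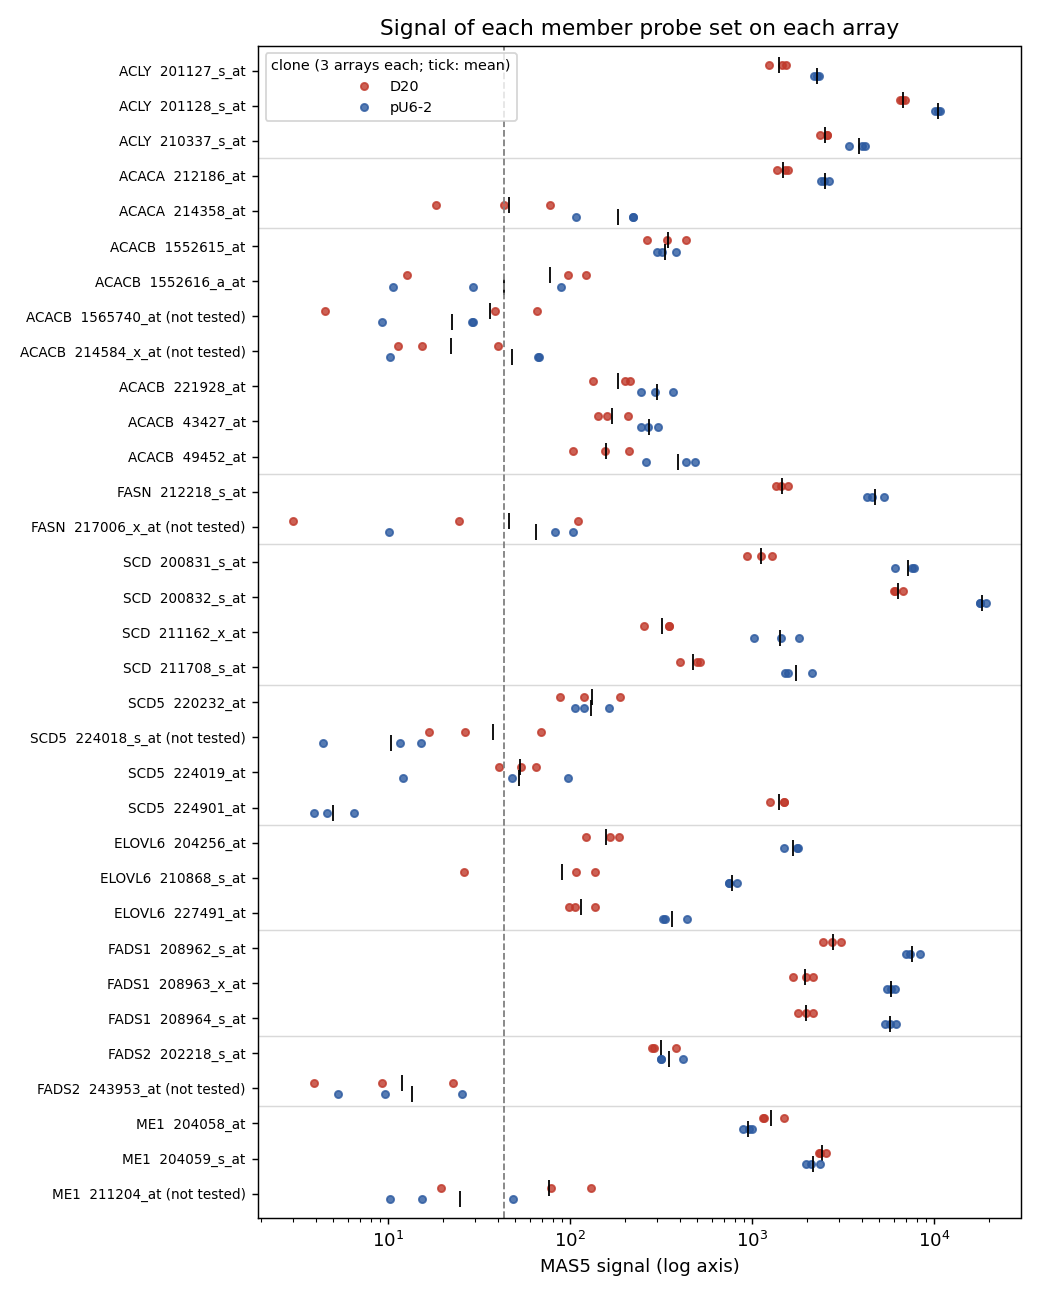
MAS5 signal (horizontal log axis) of the 33 member probe sets on each array, with D20 drawn above pU6-2 in each row; points are arrays, black ticks are group means (n = 3 each), and the dashed line marks the filter limit of 43.2. The D20 points lie left of the pU6-2 points in every row of ACLY, ACACA, SCD, ELOVL6 and FADS1, and SCD5 224901_at shows the opposite order with the widest gap.

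ACLY supplies the cytosolic acetyl-CoA for fatty acids and sterols, and its 3 probe sets gave similar changes. Probe set 201128_s_at had signals of 6954.1, 6527.2 and 6612.5 in D20, against 10550.7, 10137.7 and 10701.2 in pU6-2. All D20 arrays lay below all pU6-2 arrays, and the log2 fold change was -0.64 ± 0.07 (SE; limma, Benjamini-Hochberg adjusted p = 2.1e-05). The others, 201127_s_at and 210337_s_at, changed by -0.69 and -0.61 on the log2 scale.

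ACACA makes the malonyl-CoA that feeds the synthase. Its brighter probe set, 212186_at, had signals of 1360.2, 1509.1 and 1580.8 in D20, against 2466.1, 2639.5 and 2401.2 in pU6-2. The groups were apart, with a log2 fold change of -0.75 ± 0.10 (SE; limma, Benjamini-Hochberg adjusted p = 6.9e-05). The dimmer 214358_at had 43.2, 18.4 and 77.1 in D20, against 221.8, 108.1 and 221.2 in pU6-2. Its log2 fold change of -1.74 ± 0.45 (SE) had a 95% confidence interval of -2.71 to -0.77, which overlapped that of the brighter one, -0.97 to -0.53.

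ACACB is the isoform at the mitochondrial outer membrane, whose malonyl-CoA restrains fatty acid oxidation, and 3 of its 5 tested probe sets fell. Probe set 49452_at had signals of 103.7, 155.8 and 210.7 in D20, against 483.9, 259.9 and 432.2 in pU6-2. It fell by 1.24 ± 0.29 on the log2 scale (SE; limma, Benjamini-Hochberg adjusted p = 0.0047). Probe sets 221928_at and 43427_at fell by 0.68 and 0.65, with adjusted p = 0.049 and 0.047 (limma, Benjamini-Hochberg). Both stood at the threshold and were no longer called when single arrays were left out. Without D20 replicate A the log2 fold changes were -0.49 for 221928_at and -0.54 for 43427_at, and without D20 replicate B -0.76 and -0.61. Without pU6-2 replicate A they were -0.69 and -0.65, and without pU6-2 replicate C -0.54 and -0.57. Without pU6-2 replicate B only 43427_at was not called, at -0.71. Probe set 1552615_at had 342.5, 432.3 and 262.9 in D20, against 381.9, 319.3 and 299.8 in pU6-2. Its groups overlapped, and the 95% confidence interval of its log2 fold change ran from -0.43 to 0.49 (value 0.03). Probe set 1552616_a_at was dim, with signals from 10.6 to 122.4 over both groups.

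FASN, the multifunctional synthase, was read by 1 tested probe set. 212218_s_at had signals of 1438.9, 1573.0 and 1354.4 in D20, against 4254.9, 5325.4 and 4575.8 in pU6-2. The pU6-2 mean was 3.24 times the D20 mean, with no overlap between the groups. The log2 fold change was -1.68 ± 0.11 (SE; limma, Benjamini-Hochberg adjusted p = 9.1e-08). The second, 217006_x_at, was dim and not tested, with means of 46.1 in D20 and 65.3 in pU6-2.

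SCD makes oleate and palmitoleate and is the main desaturase of human liver. All 4 of its probe sets fell, by different amounts. Probe set 200831_s_at had signals of 935.6, 1283.6 and 1117.7 in D20, against 6073.4, 7786.1 and 7582.1 in pU6-2. That is a log2 fold change of -2.67 ± 0.13 (SE; limma, Benjamini-Hochberg adjusted p = 8.1e-09), the most negative of the 4. Probe set 200832_s_at, the brightest, had 6029.4, 6720.7 and 6121.2 in D20, against 17739.4, 19221.5 and 17892.7 in pU6-2. It changed least of the 4, by -1.54 ± 0.08 (SE), and the 95% confidence intervals of this pair, -2.95 to -2.39 and -1.71 to -1.37, did not meet. Probe sets 211162_x_at and 211708_s_at lay between them at -2.08 and -1.84.

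SCD5 is a second stearoyl-CoA desaturase, found in primates and some other mammals and known mainly from brain and pancreas, and 1 of its probe sets had the largest change of all member probe sets. Probe set 224901_at had signals of 1486.9, 1486.1 and 1247.7 in D20, against 6.5, 4.6 and 3.9 in pU6-2. The log2 fold change was 6.08 ± 0.26 (SE; limma, Benjamini-Hochberg adjusted p = 2.7e-09). Because the pU6-2 signals lay far below the filter limit, its size depends on the constant added before the logarithm, and was 7.89 with 1 and 4.41 with 64. This probe set passed the filter through its D20 signal alone. Neither of the other tested SCD5 probe sets was called. Probe set 220232_at had 118.6, 87.5 and 188.9 in D20, against 164.1, 118.4 and 106.4 in pU6-2, with a 95% confidence interval of the log2 fold change from -0.75 to 0.71. Probe set 224019_at averaged 53.2 in D20 and 52.5 in pU6-2. The untested 224018_s_at had 16.7, 26.5 and 69.2 in D20, against 11.6, 15.2 and 4.4 in pU6-2, apart but dim. Which transcripts of SCD5 each probe set reads was not analysed here.

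ELOVL6 lengthens palmitate and palmitoleate by one step and is a known target of SREBP-1c. It held the most negative changes among the members. Probe set 204256_at had signals of 186.1, 165.8 and 122.8 in D20, against 1758.4, 1493.4 and 1796.1 in pU6-2. The pU6-2 mean was 10.6 times the D20 mean, and the log2 fold change was -3.30 ± 0.17 (SE; limma, Benjamini-Hochberg adjusted p = 1.8e-08). Probe set 210868_s_at had 136.5, 26.2 and 108.3 in D20, against 747.7, 825.0 and 748.8 in pU6-2. Array B of D20 was low there, and the change was -3.09 ± 0.38 on the log2 scale (SE). Probe set 227491_at changed less, by -1.55 ± 0.24 (SE), with means of 114.1 in D20 and 364.5 in pU6-2, again without overlap.

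FADS1, the desaturase that makes arachidonate and eicosapentaenoate, fell by nearly the same amount on its 3 probe sets. Probe set 208962_s_at had signals of 2759.5, 3092.5 and 2452.4 in D20, against 7321.6, 8324.6 and 7016.0 in pU6-2. The log2 fold changes were -1.45 for 208962_s_at, -1.58 for 208963_x_at and -1.53 for 208964_s_at, each with an SE of 0.10 and the largest adjusted p = 2.7e-07 (limma, Benjamini-Hochberg). MIR1908 shares the annotation of these probe sets, so the reading cannot be given to FADS1 alone.

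FADS2, the desaturase that acts before FADS1, lies next to FADS1 on chromosome 11 and did not share this change. Probe set 202218_s_at had signals of 288.7, 281.3 and 382.1 in D20, against 316.5, 418.7 and 316.3 in pU6-2. The groups overlapped, and the 95% confidence interval of the log2 fold change, -0.58 to 0.30, excluded a fall as large as that of any FADS1 probe set. Its value was -0.14, and 0.07 with arrays scaled on spike-in controls. The second probe set, 243953_at, had signals of 3.9 to 25.6 and was not tested.

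ME1 makes NADPH from malate and was the member with a small change the other way. Probe set 204058_at had signals of 1494.7, 1153.2 and 1168.2 in D20, against 963.4, 889.4 and 997.8 in pU6-2. It rose by 0.41 ± 0.13 on the log2 scale (SE; limma, Benjamini-Hochberg adjusted p = 0.026). It did not pass with each array centred on its median (0.29), without the variance trend, without D20 replicate A (0.29), or without pU6-2 replicate A (0.42), B (0.36) or C (0.44). The brighter 204059_s_at had 2535.5, 2353.1 and 2336.3 in D20, against 2091.9, 1985.4 and 2362.3 in pU6-2. With a 95% confidence interval from -0.05 to 0.38 it did not pass the test (adjusted p = 0.22, limma with Benjamini-Hochberg), and it did with spike-in scaling (0.38).

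**Figure D2:**
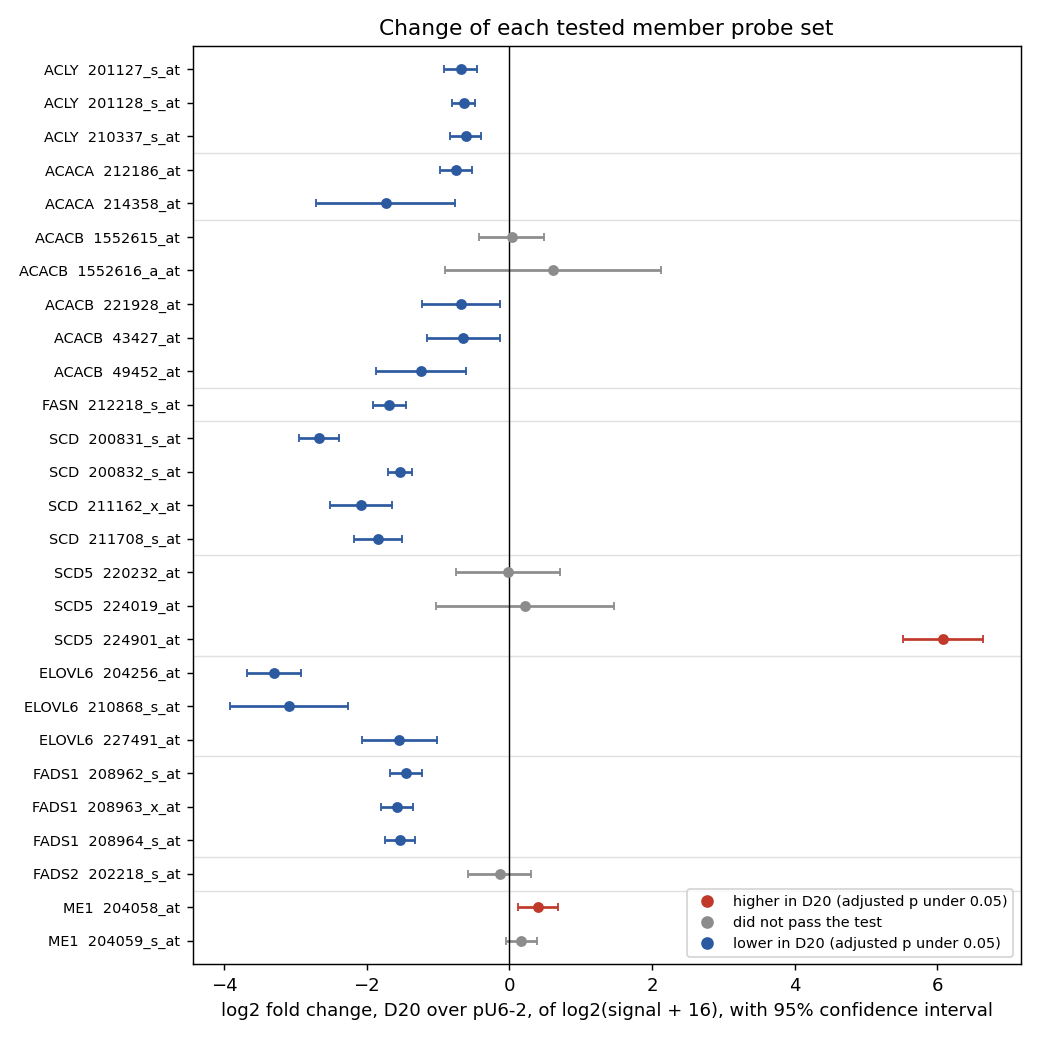
Log2 fold change, D20 over pU6-2 (horizontal axis), of the 27 tested member probe sets with 95% confidence intervals from limma on 3 arrays a group. Every interval of ACLY, ACACA, FASN, SCD, ELOVL6 and FADS1 lies left of 0, and that of SCD5 224901_at runs from 5.52 to 6.64.

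Related enzymes were also set side by side within arrays, as the mean log2(signal + 16) of one gene's tested probe sets minus that of the other. The 2 pairs were chosen after their values were seen, so the values are a description with no test. FADS1 minus FADS2 was 2.74 ± 0.31 in D20 and 4.12 ± 0.13 in pU6-2 (SD, n = 3 each). ACACA minus ACACB was 0.75 ± 0.55 in D20 and 1.60 ± 0.27 in pU6-2 (SD, n = 3 each). The D20 arrays lay below the pU6-2 arrays in both pairs.

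Among all probe sets tested 9.23% were called and at least 2-fold higher, and of the member probe sets 1 was, SCD5 224901_at.

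**Figure D3:**
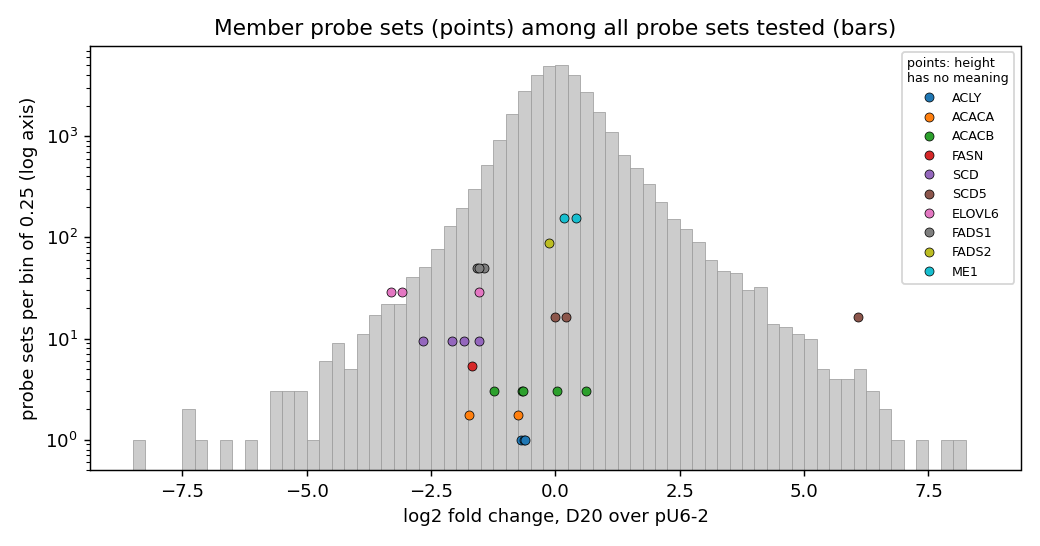
Number of probe sets per bin of 0.25 (vertical log axis) by log2 fold change, D20 over pU6-2 (horizontal axis), for the 32768 tested, with the 27 tested member probe sets as points coloured by gene whose height has no meaning. Most points lie left of 0 between -3.30 and -0.61, and 1 of SCD5 stands alone at 6.08.

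Promoters are shown for 4 genes: SCD and ELOVL6, with the 2 most negative changes among genes of 1 symbol, FADS1, whose neighbour FADS2 was not called, and SCD5, the paralog of SCD with a higher probe set. The sequences are from RefSeq on GRCh38.p14 and run 5′ to 3′ on the gene's strand from 250 bases before the annotated start to 50 after it. The windows are chr10:100346983-100347282 on the plus strand for SCD, chr4:82798747-82799046 on the minus strand for SCD5, chr4:110198566-110198865 on the minus strand for ELOVL6 and chr11:61816954-61817253 on the minus strand for FADS1. Capitals mark CCAAT, the core of the NF-Y box, and GGGCGG, the GC box bound by Sp1, each on either strand; no 2 marked motifs overlap in these 4 windows.
SCD: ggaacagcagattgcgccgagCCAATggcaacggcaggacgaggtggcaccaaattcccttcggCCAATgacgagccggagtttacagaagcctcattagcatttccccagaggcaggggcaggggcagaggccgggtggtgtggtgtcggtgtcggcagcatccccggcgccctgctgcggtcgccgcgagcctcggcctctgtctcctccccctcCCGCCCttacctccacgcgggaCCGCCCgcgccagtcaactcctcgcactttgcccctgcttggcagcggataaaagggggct
SCD5: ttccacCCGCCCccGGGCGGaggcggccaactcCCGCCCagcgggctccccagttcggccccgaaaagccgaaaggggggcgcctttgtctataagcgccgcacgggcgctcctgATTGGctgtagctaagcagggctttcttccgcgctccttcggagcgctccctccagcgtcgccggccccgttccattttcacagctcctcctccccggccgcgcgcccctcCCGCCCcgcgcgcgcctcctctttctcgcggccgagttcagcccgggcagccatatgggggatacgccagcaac
ELOVL6: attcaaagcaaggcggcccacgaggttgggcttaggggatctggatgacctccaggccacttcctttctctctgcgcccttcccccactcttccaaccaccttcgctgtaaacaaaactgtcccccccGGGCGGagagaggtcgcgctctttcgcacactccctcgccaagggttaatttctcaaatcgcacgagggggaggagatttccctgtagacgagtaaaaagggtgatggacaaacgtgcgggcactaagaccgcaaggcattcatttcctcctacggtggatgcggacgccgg
FADS1: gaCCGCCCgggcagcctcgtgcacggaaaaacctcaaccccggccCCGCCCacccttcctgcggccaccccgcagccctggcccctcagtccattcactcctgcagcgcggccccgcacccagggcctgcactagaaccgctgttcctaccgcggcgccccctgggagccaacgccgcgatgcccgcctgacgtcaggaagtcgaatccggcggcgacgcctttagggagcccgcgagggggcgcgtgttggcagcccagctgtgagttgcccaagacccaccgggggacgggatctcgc
The SCD window held 2 CCAAT motifs, starting 229 and 186 bases before the start, and 2 GC boxes. The SCD5 window held 1 CCAAT and 4 GC boxes. The ELOVL6 window held 1 GC box and the FADS1 window 2, and neither held CCAAT. Of the 10 genes 9 had an entry in the promoter table, with 14 windows in all, as ACACA, ACACB, ACLY and FADS2 have several annotated starts; the gene without one was FASN. CCAAT was found in 8 of the 14 member windows, from 6 genes, and in 34.6% of all 35116 windows. GGGCGG was found in 11 of the 14, from 9 genes, and in 45.0% of all. Windows of 1 gene can overlap, as those of ACLY and FADS2 did, so the same site can be counted more than once. The sterol regulatory sequence TCACNCCAC and the E-box CACGTG, both searched on both strands, were in none of the 14 windows, and in 1.13% and 7.26% of all windows. A match is a description of letters and not a binding site.

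The members' neighbours were taken as up to 10 tested genes on each side in the gene order of RefSeq. The 20 nearest tested genes of SCD had a median log2 fold change of -0.31, with 6 called lower and 1 higher, and those of ELOVL6 one of -0.27, with 6 lower and 4 higher. Both genes fell by more than these medians. Around FADS1 the median of 19 neighbours was -0.53, with 8 lower and 0 higher. Around FADS2, which was not called, that of 20 neighbours was -0.58, with 8 lower and 0 higher. FADS1 and FADS2 overlap by 801 bases, so these are nearly the same neighbours and not 2 separate regions. Around ACACB the median of 20 was -0.44, with 10 lower and 3 higher. The neighbourhoods of FASN (-0.03) and ACLY (0.06) had medians near 0, and that of ACACA was higher (0.39). Around SCD5 the median was 0.18, and around ME1 -0.05. Over all 13781 genes tested 42.1% were called, 19.7% as lower and 22.5% as higher. The part of neighbouring genes in the members' changes was not tested.

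The rest of the pathway was followed in 5 lists of 61 genes, each gene by its brightest tested probe set with names ending in _x_at or _s_at taken last. Only probe sets of 1 symbol were used, which left out ELOVL1. Its probe sets, annotated together with a microRNA gene, were both called higher in D20, with log2 fold changes of 0.36 and 0.51. Their adjusted p-values were 0.025 and 0.020 (limma, Benjamini-Hochberg). The shared probe sets of FADS1 were kept among the members, so the rule differed between the members and these lists. Of 48 genes tested 16 fell, 7 rose and 25 did not pass. That is 33.3% lower and 14.6% higher, beside 19.7% and 22.5% of all genes, and the median log2 fold change was -0.09 against 0.04 over all genes. These lists, too, were chosen with earlier results of these data known.

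Among the regulators of lipogenesis 7 of 18 tested genes fell and 3 rose (median of the log2 fold changes -0.02). SREBF1, which encodes the sterol regulatory element-binding protein that acts on fatty acid genes, had signals of 619.0, 623.2 and 397.9 in D20, against 1061.9, 1310.9 and 1138.7 in pU6-2. It fell by 1.10 ± 0.17 on the log2 scale (SE; limma, Benjamini-Hochberg adjusted p = 2.7e-04). SREBF2, its relative for cholesterol genes, fell by 0.98 ± 0.14 (SE), and by 0.48 on 201248_s_at, where the groups overlapped. NR1H3, the liver X receptor alpha, had 454.8, 284.2 and 273.9 in D20, against 1448.4, 1818.1 and 1479.4 in pU6-2, a log2 fold change of -2.21 ± 0.19 (SE). MLXIPL, which encodes the glucose-responsive factor ChREBP, had 296.5, 539.1 and 578.6 in D20, against 1269.5, 1514.0 and 1321.2 in pU6-2, a log2 fold change of -1.56 ± 0.21 (SE). The arrays of SREBF1, NR1H3 and MLXIPL did not overlap between the clones, and the largest adjusted p of NR1H3 and MLXIPL was 6.9e-05 (limma, Benjamini-Hochberg).

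Transcripts of the INSIG proteins, which hold SREBPs in the endoplasmic reticulum, changed in opposite directions. INSIG1, itself a target of SREBPs, fell by 2.31 ± 0.28 on the log2 scale, with 496.1, 209.3 and 586.8 in D20, against 2128.7, 1715.7 and 2265.8 in pU6-2. INSIG2 rose by 0.99 ± 0.16, with 2002.5, 1609.5 and 1518.2 in D20, against 800.0, 701.2 and 1070.7 in pU6-2. The largest adjusted p of both was 3.0e-04 (limma, Benjamini-Hochberg). SCAP, the escort of SREBPs, had a log2 fold change of -0.23 (95% confidence interval -0.53 to 0.07) and THRSP, a lipogenic cofactor, one of 0.29 on a dim probe set; neither passed. MLX, the partner of ChREBP, was called higher on the dim probe set 1570347_at (1.38), while its brightest, 213708_s_at, stood at -0.13 (limma, Benjamini-Hochberg adjusted p = 0.39). The dim probe set was not called without any one of 5 arrays, D20 A (1.40), B (1.41) or C (1.34), or pU6-2 A (1.09) or C (1.29).

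Of the genes that supply acetyl-CoA and NADPH 4 of 9 fell and 2 rose (median log2 fold change -0.11). SLC25A1, the mitochondrial carrier that exports citrate to ACLY, had 1330.7, 1503.1 and 883.8 in D20, against 2218.9, 2778.5 and 2588.0 in pU6-2, a log2 fold change of -1.05 ± 0.17 (SE). TALDO1, of the pentose phosphate pathway, and IDH1, the cytosolic isocitrate dehydrogenase that makes NADPH, fell by 0.81 and 0.67 on the log2 scale, and ME2, the mitochondrial malic enzyme, rose by 0.59.

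In the elongation cycle and its partners, with ELOVL1 left out, 3 of 11 tested genes fell and 2 rose (median log2 fold change -0.01). HSD17B12, the ketoacyl-CoA reductase of the second step, had 4062.8, 4270.7 and 4266.7 in D20, against 11655.3, 11666.6 and 12365.8 in pU6-2. The pU6-2 mean was 2.83 times the D20 mean, and the gene fell with an adjusted p = 1.3e-08 (limma, Benjamini-Hochberg). HACD2 and HACD3, dehydratases of the third step, rose by 0.53 and 0.58. ELOVL2, an elongase of polyunsaturated chains, fell by 0.90.

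Acyl-CoA synthetases, which activate fatty acids, had 0 of 4 tested genes called by limma, and also 0 at an unadjusted p under 0.05 (log2 fold changes -0.72 to 0.21). In the separate fatty acid synthesis of mitochondria 2 of 6 tested genes fell and 0 rose: HSD17B8, a ketoacyl reductase subunit, by 1.48, and NDUFAB1, the acyl carrier protein that is also a complex I subunit, by 0.76 on the log2 scale.

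**Figure D4:**
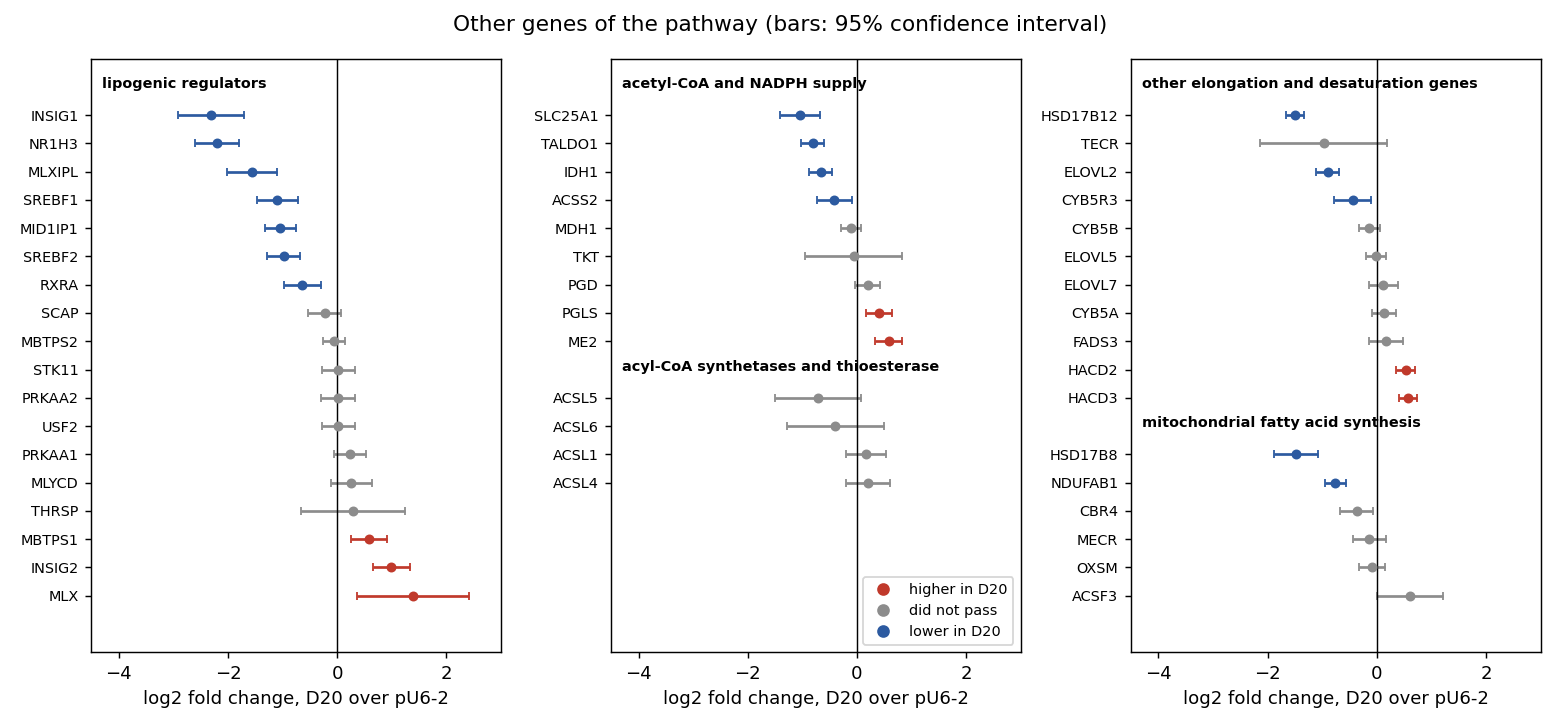
Log2 fold change, D20 over pU6-2 (horizontal axis), of the 48 tested genes of 5 lists around the members, each by 1 probe set, with 95% confidence intervals from limma on 3 arrays a group. INSIG1, NR1H3, MLXIPL and HSD17B12 lie farthest left, and INSIG2 and MLX farthest right. MLX stands there by its dim probe set 1570347_at alone, and its brighter probe sets were not called.

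Transcripts that mark cell types were read in the same comparison. Of 10 hepatocyte markers tested 9 fell and 1, FGB, rose (median log2 fold change -2.07). Their summed signal was 105027 to 116788 in D20 and 247702 to 256512 in pU6-2. This sum took the brightest probe set of each gene whatever its name ending, which for some genes was not the one counted. The log2 fold changes of AFP, APOH and TTR, all called, were -5.62, -3.03 and -2.99, and APOH was at -2.34 on its brightest probe set. ALB fell by 2.39 on 214837_at, while its brightest probe set, 211298_s_at, gave 0.0049 and did not pass. Of the 10 hepatocyte markers 0 were below the filter limit in either clone. The summed signal of 10 fibroblast markers was 4280.1 to 5081.6 in D20 and 1241.0 to 1463.3 in pU6-2, with 4 of the 10 below the filter limit in D20 and 3 in pU6-2, and 1 of 8 tested genes higher and 2 lower. COL1A1 averaged 3780.0 in D20 and 1.2 in pU6-2 on 1556499_s_at, and this 1 probe set made most of the higher D20 sum. In the fits without D20 replicate A, B or C the gene was read by another probe set, 217430_x_at, which was not called, at 0.33, 0.32 and 0.28. LUM averaged 8.3 in D20 and 160.4 in pU6-2 on 201744_s_at. In the fit without pU6-2 replicate C it was read by 229554_at, which was not called, at -0.67. PDGFRA fell by 0.58 on 203131_at, but was not called without pU6-2 replicate A (-0.51) and stood at 0.71, not called, with the mean of its probe sets. COL3A1, a defining fibroblast gene, averaged 20.3 in D20 and 20.2 in pU6-2. Of 6 endothelial markers 5 were below the filter limit in each clone, and PECAM1 rose by 1.63 on the log2 scale; their summed signal was 306.0 to 344.8 in D20 and 115.4 to 206.8 in pU6-2. The summed signal of 4 blood cell markers was 142.7 to 244.5 in D20 and 250.8 to 375.4 in pU6-2. Of these 2 were below it in each clone and 0 of 2 tested were called by limma, also 0 at an unadjusted p under 0.05. The part of these transcripts in the lipogenic changes was not tested.

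Among the 19 lower probe sets the lowest D20 signal was in array A for 10, in B for 5 and in C for 4. Of these 19, 17 were called lower in each alternative processing that tested them; the exceptions were ACACB 221928_at and 43427_at. With arrays scaled on spike-in controls the median over all tested probe sets was 0.23, and with median centring -0.09, so that SCD 200832_s_at was at -1.32 in the first and -1.66 in the second.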

How the data were processed

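RNA of Hep3B cells was measured on 6 arrays, 3 of clone D20 and 3 of pU6-2. The deposited values are intensity values on a linear scale, 1 per probe set and array, made with MAS5 per the submitters' processing notes; version and scaling target: not given in the sources used here. Probe sets were named through the platform annotation, updated to RefSeq symbols (GRCh38.p14): of 54675, 41091 had 1 symbol, 1801 several and 11721 none, and 62 were controls.

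Values were transformed to log2(signal + 16), which understates changes of dim probe sets. Controls and the dimmest 40% by mean over all arrays were left out. D20 was compared with pU6-2 by limma 3.58.1 in R 4.3.3 (lmFit, eBayes with a variance trend; two-sided tests at a Benjamini-Hochberg adjusted p of 0.05). The fit was tested on simulated data.

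Every member is named with each probe set, as are SREBF1, SREBF2, SCAP, INSIG1, INSIG2, MLXIPL, NR1H3 and THRSP, up to 4 called genes of each other list with the largest changes, ALB and AFP. COL3A1, MLX probe set 213708_s_at and the pairs of related enzymes were chosen after their values were seen. The members and lists were chosen with earlier results of these data known. Alternatives were other pseudocounts (1 and 64), no filter or 60%, quantile normalization, median centring, spike-in scaling, no variance trend, the array letter as a block, other probe set choices and leaving out each array; the choice with only _x_at names last was added after seeing the data. Same-letter arrays did not deviate together (correlations -0.02, 0.05 and 0.01), which does not settle whether the letters mark a pairing.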

Additional observations from a re-analysis of the deposited data

How the results depend on the processing

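Between 17 and 19 member probe sets were lower in every alternative, against 19 as reported. The number higher, 2 as reported, was 1 with median centring, 3 when spike-in controls set the scale, 1 without the variance trend, and 1 to 2 with single arrays left out. With the array letter as a replicate block 18 were lower and 2 higher. Over all probe sets that block called 5899 lower and 6658 higher, against 5555 and 6397 as reported. The labels do not say whether the letters pair the arrays. ACACB 221928_at was also lost at pseudocount 1 (-0.73), without a filter (-0.68), with spike-in scaling (-0.48) and without the variance trend (-0.68), and 43427_at without a filter (-0.65), with spike-in scaling (-0.44) and with the block (-0.65). Spike-in scaling called 3367 probe sets lower instead of 5555, and 11 genes of the 5 lists higher instead of 7. Calls that were higher made up 53.5% as reported, 41.9% with median centring and 72.9% with spike-in scaling. Values that changed sign, none of them called, were ACACB 1552615_at (-0.10 with quantile normalization, -0.091 with median centring, and, with single arrays left out, -0.14 to 0.20, below 0 at -0.14 without D20 replicate B and -0.040 without pU6-2 replicate C), SCD5 220232_at (0.18 with spike-in scaling, 0.02 and 0.21 without D20 replicates A and B, 0.15 without pU6-2 replicate A, in a range of -0.28 to 0.21), SCD5 224019_at (-0.31 without pU6-2 replicate B, in a range of -0.31 to 0.36), FADS2 202218_s_at (0.070 with spike-in scaling) and THRSP (-0.067 without D20 replicate B, in a range of -0.067 to 0.64). ALB, MLX and PDGFRA were called as reported and changed sign, with no call, through the choice of probe set: ALB was 0.0049 with only _x_at names last, MLX was -0.13 with that choice and with the 60% filter, and PDGFRA was 0.71 when its probe sets were averaged. The cause of the other sign changes was not tested. The arrays give no counts, and signals near the filter limit are the least precise.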
